A study of Homo sapiens with 8 samples.

Results

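TXNIP (thioredoxin-interacting protein), its relatives ARRDC1, ARRDC2, ARRDC3 and ARRDC4, and the transcription factors MLXIP (MondoA) and MLX were followed in CAKI1 cells, an established human renal carcinoma line. These 7 genes, found by symbol, are 7 of 16782 genes in the deposited table, and all 7 passed the filter on low values. TXNIP had been picked because its value in the contrast described here was already known, and the others were added for their family or their role in TXNIP transcription. For this reason their differences are given as a description with no p-value, and the counts of calls among them are not used as evidence. The samples are 4 control samples of unstimulated cells and 4 samples of cells that received 5 µg/mL holo Lcn-2 (hLcn-2, lipocalin-2 loaded with iron) for 24 h, numbered 1 to 4 in each group. All cells, controls included, were serum starved for 24 h beforehand and grown in high-glucose medium, and the recombinant protein was made in bacteria. Neither labels nor methods state that the numbered samples came from separate cultures, so p-values measure only the spread between these samples, which may be technical.

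Alpha-arrestins are adaptor proteins with an arrestin fold that carry short motifs for ubiquitin ligases of the NEDD4 family and bring membrane proteins to them for internalization. TXNIP is the family member that also binds thioredoxin, the cell's protein disulfide reductase, and it lowers glucose uptake by driving glucose transporters off the cell surface. MondoA, encoded by MLXIP, pairs with MLX, senses glucose 6-phosphate and enters the nucleus to bind carbohydrate response elements, of which those of TXNIP and ARRDC4 are the best known. In renal carcinoma, a cancer of altered glucose handling, TXNIP is generally regarded as a growth-restraining gene.

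Of the 7 genes, TXNIP, ARRDC3 and ARRDC4 were those higher in each hLcn-2 sample than in the control of the same number. Among all genes tested, 9.93% were likewise higher in all 4 comparisons, and TXNIP had been picked on this contrast. The pattern served only to choose which upstream regions are shown. Each line holds the 250 bases before the start of the gene, 5′ to 3′ on the strand of the gene, from RefSeq on GRCh38.p14. That of TXNIP is chr1:145996580-145996829 (minus strand), that of ARRDC3 chr5:91383318-91383567 (minus strand) and that of ARRDC4 chr15:97960453-97960702 (plus strand). Capitals mark the motifs found by search on both strands: the E-box CACGTG, to which MLX-containing dimers can bind, pairs of the relaxed box CACGNG spaced by 5 bases, as in a carbohydrate response element, and the CCAAT box.
TXNIP: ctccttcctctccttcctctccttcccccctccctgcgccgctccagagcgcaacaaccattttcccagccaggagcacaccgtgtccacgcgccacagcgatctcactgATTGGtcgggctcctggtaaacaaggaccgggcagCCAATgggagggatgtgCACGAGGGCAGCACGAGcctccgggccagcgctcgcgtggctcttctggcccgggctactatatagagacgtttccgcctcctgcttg
ARRDC3: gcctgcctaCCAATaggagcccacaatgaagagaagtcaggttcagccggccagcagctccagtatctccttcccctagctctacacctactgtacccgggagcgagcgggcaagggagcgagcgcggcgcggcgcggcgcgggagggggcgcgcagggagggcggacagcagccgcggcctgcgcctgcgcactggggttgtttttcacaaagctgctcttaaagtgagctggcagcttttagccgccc
ARRDC4: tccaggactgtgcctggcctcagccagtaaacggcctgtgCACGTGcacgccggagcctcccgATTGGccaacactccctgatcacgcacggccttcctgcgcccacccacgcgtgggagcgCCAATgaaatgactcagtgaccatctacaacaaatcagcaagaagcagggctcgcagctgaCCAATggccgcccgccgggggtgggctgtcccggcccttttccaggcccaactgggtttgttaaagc

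The TXNIP window held a pair of relaxed boxes with the letters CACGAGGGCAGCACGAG, from position -88 to -72 relative to the first base of the gene. Such a pair occurred in 16 of 27305 upstream windows of the same length (0.0586%), and TXNIP was the only one of the 7 genes with it. A pair of exact E-boxes at this spacing was found in 1 window and in none of the 7 genes. The exact E-box was present in ARRDC4, at position -210, and in MLX, at position -50, against 6.49% of all windows. CCAAT boxes were present in 6 of the 7 genes, ARRDC2 being the exception, against 33.0% of all windows. TXNIP, ARRDC2 and ARRDC3 have 2 upstream entries each in the sequences used, and only the first entry of each gene was searched. The relaxed pair and the CCAAT box were chosen after the sequences had been seen, and a match of letters is not evidence of binding.

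Reads per library ranged from 1501563 (control 4) to 13953090 (control 1). The values are normalized counts on the scale of CPM, reads scaled by a library size that the authors adjusted, and 3 reads, taken as the lowest level that can be shown, were worth between 0.211 and 1.98 CPM. Of 9 renal epithelial carcinoma markers, 8 were in the table and averaged at least 1 CPM, with a summed level of 2826 to 3855 CPM in controls and 3155 to 4086 CPM in hLcn-2 samples. Blood and fibroblast markers summed to at most 6.58 CPM in any sample, and of the 4 endothelial markers 0 were in the table. Samples with the number 3 had the highest share of the mitochondrial ribosomal RNA RNR2, 6.22% in the control and 7.10% after hLcn-2, against 3.31% to 4.37% elsewhere. Whether this bears on the genes described here was not tested.

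Genes were called at a Benjamini-Hochberg adjusted p-value below 0.05, in fits that either left out the replicate number (unblocked) or held it as a term (blocked). The unblocked limma fit called 0 of the 15593 genes tested (0%), and 355 reached 0.05 before adjustment. Unblocked fits with edgeR (quasi-likelihood) and DESeq2 (Wald) also called 0 genes, and 324 and 284 reached 0.05 before adjustment. The blocked limma fit called 44 genes (0.282%) and the blocked edgeR fit 233 genes (1.49%). Of the 7 genes, 0 were called in the unblocked limma fit, 1 (TXNIP) in the blocked limma fit and 2 (TXNIP and ARRDC3) in the blocked edgeR fit. As TXNIP was chosen on this contrast, these counts describe the genes and nothing is read from them.

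In GRCh38, TXNIP spans bases 145992435 to 145996579 of chromosome 1 (minus strand) and has 8 exons in its canonical transcript (GENCODE 44). Its last exon, from 145992435 to 145993886, holds 1419 nt of 3′ untranslated region, where the 3′ mRNA kit reads, and no other annotated exon overlaps the gene. TXNIP had normalized counts of 171, 218, 473 and 229 CPM in controls 1 to 4 and of 337, 274, 726 and 288 CPM in hLcn-2 samples 1 to 4. Both samples with the number 3 were the highest of their group, and the groups overlapped because control 3 exceeded hLcn-2 samples 1, 2 and 4. Controls averaged 273 ± 136 CPM (SD, n = 4) and hLcn-2 samples 406 ± 215 CPM (SD, n = 4), a ratio of 1.49, so the difference between means was smaller than the SD of the hLcn-2 group. On the scale of log2(normalized count + 1) the difference was 0.56, with a standard error of 0.34 unblocked and 0.10 blocked. In RNA of whole cultures, a change in some cells and a smaller change in all cells cannot be told apart.

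Within same-numbered samples, TXNIP was 1.97, 1.25, 1.53 and 1.26 times as high after hLcn-2 as in controls 1 to 4. These ratios rest on 348 to 3780 reads per library, and the lowest bound of their 95% counting intervals (exact Clopper-Pearson, counting error only) was 1.12. As the columns of the deposited table are named, TXNIP was higher in each of the 4 pairs, with every counting interval above 1. The ratio differed between pairs by more than the counting intervals of pairs 1 and 2 allow. These intervals leave out the variation between libraries, which exceeded counting error within both groups across genes. As TXNIP was also chosen on this contrast, they do not measure an effect of treatment. The value of TXNIP in control 1 was the only number of the table written with a decimal comma and had fewer decimals than the others, and read as a decimal point it stood for 2431 whole reads. The direction given for TXNIP rests on the deposited values and column names alone, and no second measurement of it was analysed here. The study's supplementary list of differentially expressed genes gives TXNIP as lower after hLcn-2, which is the opposite direction. The reason for this conflict was not tested, so the direction of TXNIP remains unsettled. Without control 1 the log2 difference was 0.37, and without both samples of number 1 it was 0.42. Without hLcn-2 sample 3 it was 0.24, without control 3 it was 0.86, and without both it was 0.54.

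ARRDC3, an adaptor known for directing adrenergic receptors and integrin beta 4 to degradation and for its link to body fat, spans bases 91368631 to 91383317 of chromosome 5 (minus strand). Its normalized counts were 55.2, 61.7, 138 and 121 CPM in controls 1 to 4 and 149, 95.9, 169 and 147 CPM in hLcn-2 samples 1 to 4. Controls 1 and 2 were the lowest and lay apart from controls 3 and 4, whereas sample 2 was the lowest of the hLcn-2 samples by a wide margin. The groups overlapped, since controls 3 and 4 exceeded hLcn-2 sample 2. The means were 93.9 ± 41.7 (SD, n = 4) and 140 ± 31.3 (SD, n = 4), with a log2 difference of 0.66 (standard error 0.29 unblocked, 0.15 blocked). The 4 same-numbered ratios were 2.70, 1.56, 1.22 and 1.22, and each counting interval lay above 1, the lowest bound being 1.04. An antisense gene, ARRDC3-AS1, overlaps exons of ARRDC3 but not the last exon, and whether reads were counted by strand is not given in the sources used here.

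ARRDC4, which like TXNIP is a classical target of MondoA and acts on glucose transport, spans bases 97960703 to 97973833 of chromosome 15 (plus strand), with 2649 nt of 3′ untranslated region in its last exon. It was measured at a low level, with normalized counts of 3.87, 5.33, 4.94 and 1.98 CPM in controls 1 to 4 and of 7.30, 5.63, 9.38 and 6.96 CPM in hLcn-2 samples 1 to 4. Each hLcn-2 sample was above each control, although the lowest of the former, sample 2, exceeded the highest of the latter, control 2, by less than the counting error of the 71 and 40 reads behind them. Among all genes tested, 0.891% had their hLcn-2 samples above all controls and 0.988% below all controls. ARRDC4 was the only one of the 7 genes whose groups did not overlap. The means were 4.03 ± 1.499 (SD, n = 4) and 7.32 ± 1.55 (SD, n = 4), a ratio of 1.82. The log2 difference was 0.77 (standard error 0.28 unblocked, 0.23 blocked), the largest of the 7 genes with a pseudocount of 1, and it was 0.46 with a pseudocount of 5.

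The same-numbered ratios of ARRDC4 were 1.89, 1.06, 1.90 and 3.52. The counting interval of pair 2 included 1 (0.700 to 1.58), that of pair 3 reached down to 1.003, and that of pair 4 was wide, from 1.102 to 18.0, because control 4 held only 3 reads of ARRDC4, the floor itself. Without control 4 the log2 difference was 0.53. In total, 3 of the 7 genes were higher in all 4 pairs and 0 were lower in all 4, against 9.93% and 10.9% of all genes tested. This count includes TXNIP, on which the choice of genes rests.

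**Figure D1:**
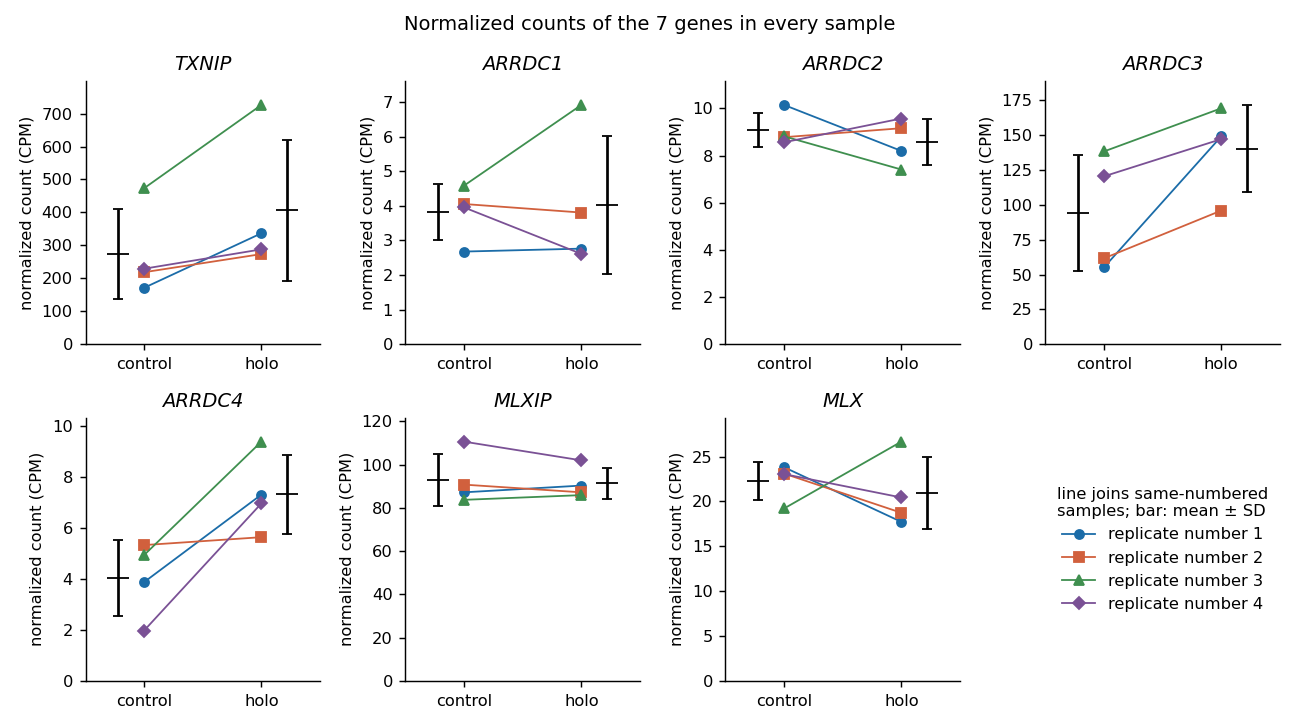
Normalized counts (CPM, linear axes from 0) of the 7 genes in 4 controls and 4 hLcn-2 (holo) samples, with lines joining samples of the same number and bars giving the mean ± SD of each group. The lines of TXNIP, ARRDC3 and ARRDC4 all point upwards, TXNIP in samples with the number 3 lies apart at 473 and 726 CPM, and the lines of ARRDC1, ARRDC2, MLXIP and MLX run in both directions.

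ARRDC1 and ARRDC2 were measured with few reads and showed no common direction. ARRDC1, which recruits TSG101 and gives rise to vesicles that bud from the plasma membrane, had 2.68, 4.05, 4.58 and 3.95 CPM in controls 1 to 4 and 2.76, 3.804, 6.91 and 2.61 CPM after hLcn-2. The groups overlapped, with hLcn-2 sample 3 above all controls and sample 4 just below them, and 2 of 4 pairs were higher. Its log2 difference was 0.0019 (standard error 0.29), and with 6 to 54 reads per library all 4 counting intervals of the pair ratios included 1. The lncRNA ARRDC1-AS1 overlaps the last exon of ARRDC1 on the opposite strand, so reads from both cannot be told apart unless strand was used in counting. Another lncRNA overlaps exons of ARRDC1 other than the last on the same strand, where strand would not separate the reads.

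ARRDC2, a less studied member that also binds NEDD4-type ligases, had 10.1, 8.78, 8.81 and 8.56 CPM in controls 1 to 4 and 8.19, 9.16, 7.41 and 9.57 CPM in hLcn-2 samples 1 to 4. Its values stayed in a narrow band in both groups, with control 1 the highest of all. The log2 difference was -0.075 (standard error 0.19), 2 of 4 pairs were higher, and each counting interval included 1. The precision was low at 13 to 144 reads per library, since the intervals of pairs 3 and 4 ran from 0.438 to 1.52 and from 0.591 to 2.26.

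MLXIP, the glucose sensor of the pair, had 87.2, 90.8, 83.7 and 111 CPM in controls 1 to 4 and 90.3, 87.2, 85.9 and 102 CPM in hLcn-2 samples 1 to 4. The values of same-numbered samples lay close together, and those of number 4 were the highest of both groups. The means of 93.1 ± 12.05 (SD, n = 4) and 91.4 ± 7.33 (SD, n = 4) differed by less than the spread between samples, with a log2 difference of -0.022 (standard error 0.13 unblocked, 0.083 blocked). All 4 counting intervals of the pair ratios included 1, and together they ran from 0.771 to 1.22. MLXIP is on the plus strand of chromosome 12 from 122078756 to 122147344, and no other annotated exon overlaps it.

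MLX, the partner with which MondoA binds DNA, had 23.8, 23.1, 19.2 and 23.0 CPM in controls 1 to 4 and 17.7, 18.7, 26.7 and 20.4 CPM in hLcn-2 samples 1 to 4. Pairs 1, 2 and 4 were lower after hLcn-2 and pair 3 was higher, control 3 being the lowest control and hLcn-2 sample 3 the highest sample. The log2 difference was -0.10 (standard error 0.18). The counting intervals of the ratios in pairs 1 and 2, 0.745 and 0.811, lay below 1, whereas those of pairs 3 and 4 included it. PSMC3IP, a coding gene on the opposite strand, overlaps the last exon of MLX, so its reads cannot be told apart from those of MLX unless strand was used.

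**Figure D2:**
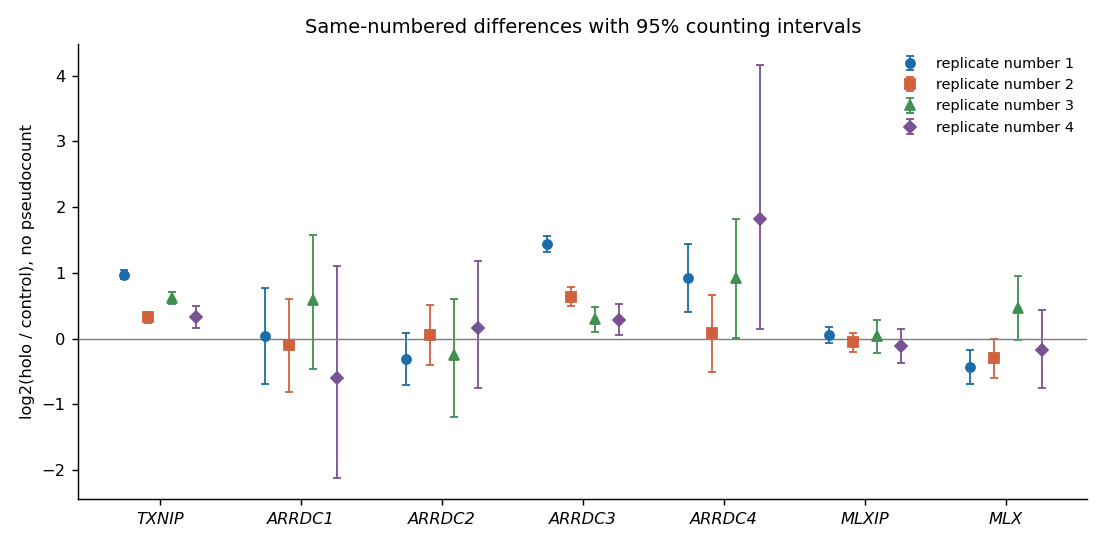
Log2 ratio of hLcn-2 (holo) to control without a pseudocount for each of the 4 same-numbered pairs of the 7 genes, with bars giving the 95% counting interval of each ratio. All intervals of TXNIP and ARRDC3 lie above 0, and those of ARRDC1 and ARRDC4 are the widest because as few as 6 and 3 reads stand behind them.

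The 7 genes differed in how their variation fell to treatment and to replicate number. When the sum of squares of the 8 log2 values was split, the replicate number took 75.2% for TXNIP, 77.0% for ARRDC1 and 92.1% for MLXIP, against a median of 66.6% over all genes tested. In TXNIP the treatment took 20.2%, with 4.56% left over. The replicate number has more degrees of freedom than treatment, and the shares are not divided by them. Noise alone would therefore give the number the larger share, so the shares do not rank number against treatment. For ARRDC3 the treatment took 33.7% and the number 49.6%. ARRDC4 was the only one of the 7 genes in which treatment had the larger share, 55.5% against 22.8% for the number. MLX and ARRDC2 showed the reverse of MLXIP, as 83.7% and 59.5% of their variation belonged to neither. Over all genes tested, the median share of treatment was 6.15%.

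**Figure D3:**
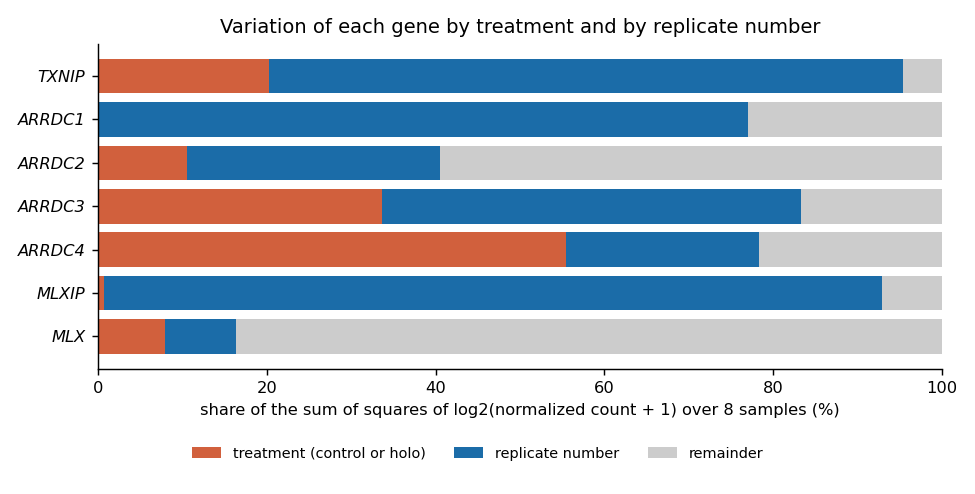
Shares (%) of the sum of squares of log2(normalized count + 1) over 8 samples that fall to treatment, to replicate number and to the remainder, for each of the 7 genes. The treatment share runs from 0.00071% for ARRDC1 to 55.5% for ARRDC4, and MLXIP has the largest share for replicate number (92.1%). Shares are not divided by degrees of freedom, of which replicate number has more than treatment.

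The genes whose profile was most like that of TXNIP were not alpha-arrestins. Likeness was the root mean square difference over the 8 samples of log2(normalized count + 1), each gene centred on its mean, over the 9005 other genes with a mean of at least 10 CPM. The 5 nearest were INSR, the insulin receptor (0.21), VASN, a membrane protein that binds TGF-beta (0.22), C7orf26 (0.23), USP51, a deubiquitinase (0.23), and CRYM, which binds thyroid hormone (0.24). The median distance of all genes was 0.67. INSR had 7.11, 5.78, 15.0 and 7.24 CPM in controls 1 to 4 and 9.09, 7.89, 19.7 and 8.70 CPM in hLcn-2 samples 1 to 4, so that it shared with TXNIP the high samples of number 3. ARRDC3, at a distance of 0.40, was at rank 257, whereas MLX (0.63) and MLXIP (0.68) were at ranks 3666 and 4797. The low genes ARRDC1, ARRDC4 and ARRDC2 had distances of 0.44, 0.50 and 0.72.

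**Figure D4:**
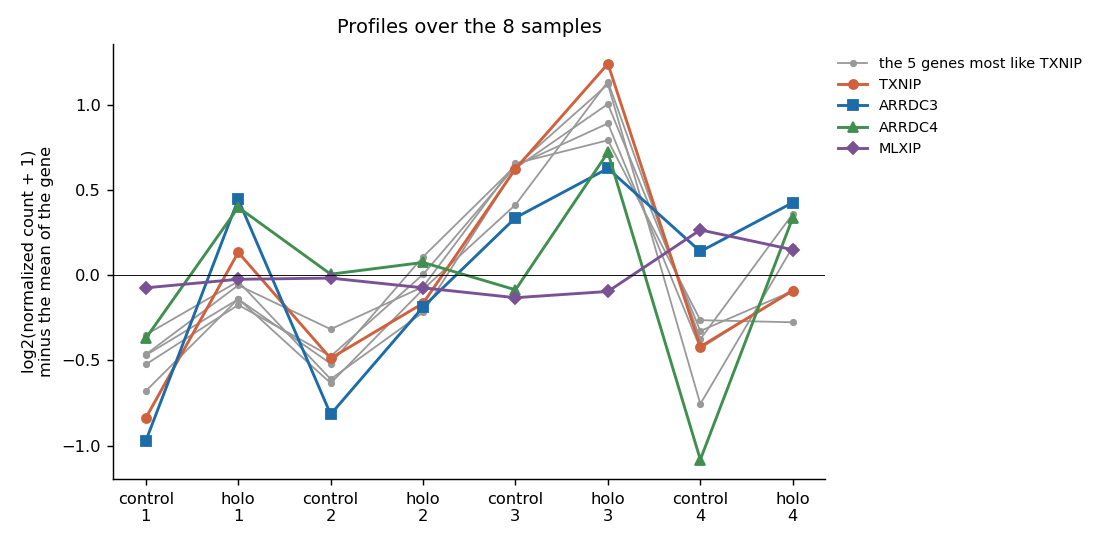
Log2(normalized count + 1) minus the mean of the gene in each of the 8 samples, for TXNIP, ARRDC3, ARRDC4, MLXIP and the 5 genes nearest to TXNIP (grey). TXNIP and the grey genes peak in both samples of number 3, ARRDC3 differs most between the samples of number 1, and MLXIP stays near 0.

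The genes around this family were followed in 7 lists with 71 genes, of which 60 were in the table and 59 were tested. Of these 59 genes, 30 were higher and 29 lower after hLcn-2, with a median log2 difference of 0.00017 against 0.00083 over all genes tested. In all 4 pairs, 8 of the 59 were higher and 6 lower, against 9.93% and 10.9% of all genes tested. Agreement of single genes over 4 pairs, given below, is therefore a description from which nothing is read. Both limma fits called 0 of the 59 genes, against 0 (unblocked) and 44 (blocked, 0.282%) of all 15593 genes tested. Before adjustment, 355 genes of the whole table reached 0.05 in the unblocked fit and 1900 in the blocked one. The blocked edgeR fit called 1 of the 59, HKDC1, a share close to the 1.49% of all genes called in that fit.

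Relatives with an arrestin fold include the beta-arrestins ARRB1 and ARRB2 and the VPS26 proteins, which are subunits of endosomal sorting complexes. All 6 tested had negative log2 differences, with a median of -0.11, but 0 were called. ARRB2, which uncouples G protein-coupled receptors, averaged 18.7 ± 3.13 CPM (SD, n = 4) in controls against 17.0 ± 2.31 CPM (SD, n = 4) in hLcn-2 samples and was lower in 4 of 4 pairs. VPS26A had 119 ± 14.2 (SD, n = 4) and 113 ± 18.8 (SD, n = 4) and was also lower in 4 of 4 pairs. VPS26C had a log2 difference of -0.11 but was higher in 3 of 4 pairs, its control mean being raised by control 3 at 64.0 CPM. RGP1 had a log2 difference of -0.056 with a standard error of 0.17.

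In the MYC/MAX/MLX network, the set of basic helix-loop-helix factors to which MLX belongs, 5 of 10 genes were higher and 5 lower, and 0 were called. MLXIPL, which encodes ChREBP, the other carbohydrate-sensing partner of MLX, was measured with only 4 to 17 reads per library and averaged 2.07 ± 1.63 CPM (SD, n = 4) in controls against 2.48 ± 2.335 CPM (SD, n = 4) in hLcn-2 samples. MYC, the growth-promoting factor that competes with MondoA at some promoters, had 38.0, 57.5, 29.8 and 14.5 CPM in controls 1 to 4 and 51.5, 60.2, 43.0 and 32.2 CPM in hLcn-2 samples 1 to 4. It was thus higher in 4 of 4 pairs, with a log2 difference of 0.53, and the adjusted p was 0.9999 in the unblocked limma fit, 0.154 in the blocked limma fit and 0.109 in the blocked edgeR fit. MXI1, a repressive partner of MAX, was higher in 4 of 4 pairs as well, with a log2 difference of 0.27 and an adjusted p of 0.258 in the blocked limma fit. MNT and MXD4, also repressors, had log2 differences of -0.13 and -0.059.

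The thioredoxin system, whose central protein TXNIP binds, had positive log2 differences for 9 of 10 genes and a negative one for 1, with a median of 0.078 and 0 calls. TXN, thioredoxin itself, had 434, 585, 352 and 222 CPM in controls 1 to 4 and 528, 594, 381 and 372 CPM in hLcn-2 samples 1 to 4. It was higher in 4 of 4 pairs, but in pair 2 by a log2 difference of only 0.021, and its adjusted p was 0.9999 in the unblocked and 0.279 in the blocked limma fit. PRDX5, a peroxiredoxin of mitochondria and peroxisomes, was higher in 4 of 4 pairs too, with a log2 difference of 0.18. PRDX4, the peroxiredoxin of the endoplasmic reticulum, had a log2 difference of -0.13 and TXNRD3, a thioredoxin reductase, is among the 9 only by a log2 difference of 0.00017, its mean being 12.7 ± 4.65 CPM (SD, n = 4) in controls against 12.6 ± 3.84 CPM (SD, n = 4) in hLcn-2 samples.

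Of the NEDD4-family ligases and adaptors, through which alpha-arrestins act, 6 of 10 genes were higher and 4 lower, with a median log2 difference of 0.029 and 0 calls. NEDD4L averaged 52.4 ± 3.21 CPM (SD, n = 4) in controls against 45.4 ± 4.46 CPM (SD, n = 4) in hLcn-2 samples. Its groups did not overlap, and 0.988% of all genes tested likewise had all hLcn-2 samples below all controls. Its log2 difference was -0.21, with an adjusted p of 0.9999 in the unblocked and 0.409 in the blocked limma fit. Like NEDD4L, SMURF2 was lower in 4 of 4 pairs (log2 difference -0.13), whereas SMURF1 and NDFIP2, an adaptor of these ligases, had log2 differences of 0.15 and 0.098. Of the 8 tested genes for cargo and vesicle partners of alpha-arrestins, 2 were higher and 6 lower, with a median of -0.046 and 0 calls. F2R, the thrombin receptor, and ITGB4, the integrin that ARRDC3 binds, had log2 differences of -0.15 and -0.096. VPS4A and VPS4B, the ATPases of membrane scission, had -0.018 and 0.057.

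Genes of glucose uptake and phosphorylation were split, with 6 of 11 higher and 5 lower and a median log2 difference of 0.023. HKDC1, a hexokinase-like enzyme, had 315, 360, 379 and 298 CPM in controls 1 to 4 and 484, 501, 432 and 369 CPM in hLcn-2 samples 1 to 4. It was higher in 4 of 4 pairs, with hLcn-2 sample 4 alone below the highest control, and its log2 difference was 0.40 (standard error 0.14). For HKDC1 the adjusted p was 0.9999 in the unblocked limma fit, 0.0620 in the blocked limma fit and 0.0150 in the blocked edgeR fit. HK2 and HK1, the hexokinases of most cells, had log2 differences of 0.19 and -0.20, with HK2 higher in 4 of 4 pairs. SLC2A8, an intracellular glucose transporter, had one of -0.084. Among the 4 tested genes with known carbohydrate response elements, 2 were higher, 2 lower and 0 called. KLF10, a zinc finger factor induced by glucose, was higher in 4 of 4 pairs, with a log2 difference of 0.36 and an adjusted p of 0.231 in the blocked limma fit. FASN and ACACA, the enzymes of fatty acid synthesis, had log2 differences of 0.14 and -0.050.

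**Figure D5:**
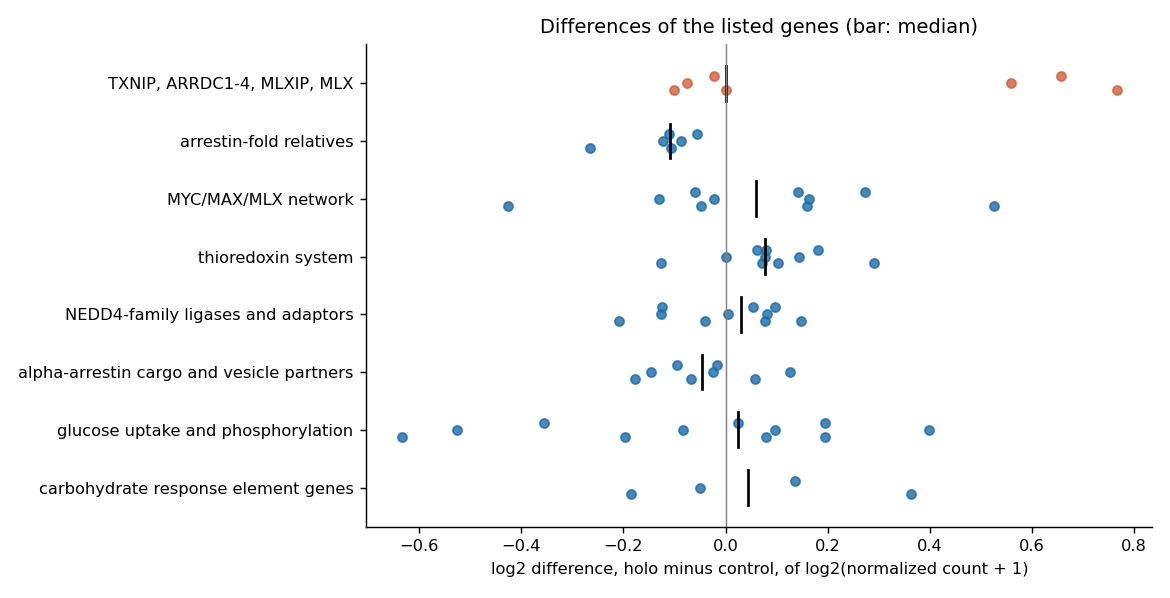
Log2 difference between hLcn-2 (holo) and control samples of log2(normalized count + 1) for the 7 genes (top row) and for each tested gene of the 7 lists, with a black bar at the median of each row. TXNIP, ARRDC3 and ARRDC4 lie at 0.56, 0.66 and 0.77, and the medians of the lists lie between -0.11 and 0.078.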

How the data were processed

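RNA of CAKI1 cells (4 control and 4 hLcn-2 samples) was sequenced from 3′ mRNA libraries with unique molecular identifiers. Per the study's methods, the authors aligned reads to GRCh38 with STAR, collapsed them by identifier, counted genes with HTSeq and used edgeR. The deposited values are normalized counts, a signal on the scale of CPM of a library size adjusted by the authors. Each column consisted of whole multiples of 1 step, the worth of 1 read: 134256 of 134256 values came out whole within 0.01 reads. The recovered reads gave depths of 1501563 to 13953090. Of the genes, 2810 lacked a symbol, and 2645 were named from GENCODE 44 by identifier, as was 1 listed gene under an older symbol.

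Limma 3.58.1 (R 4.3.3) was run with an intensity trend, two-sided, on log2(value + 1) for genes that reached 1 CPM in 2 or more samples, with Benjamini-Hochberg adjustment over all genes. EdgeR 4.0.16 and DESeq2 1.42.0 were run on the recovered reads. Same-numbered samples deviated together from their group means (correlations across genes of 0.48, 0.59, 0.61 and 0.31 for numbers 1 to 4), so the numbers in the titles were taken as pairs and the fit with the replicate block is given beside the main fit. No samples of a group agreed within sampling noise. The genes, lists and tests were chosen with earlier results of these data known. Named are the 7 genes, list genes called in limma with or without the block, of each list the 2 highest and 2 lowest log2 differences at a mean of at least 10 CPM, and the 5 genes most like TXNIP. HKDC1 was called only in edgeR with the block and falls under the same rule by its difference. MLXIPL and ARRB1 fall outside the rule and were named after their values were seen. Of the listed genes, 11 were not analysed here, nor were protein sequences. The models were tested on simulated data. Upstream windows were searched in RefSeq sequences of GRCh38.p14.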

Additional observations from a re-analysis of the deposited data

Results flagged for a closer look

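Among 78 groups of 4 samples examined, of the 7 genes and the other genes named, 12 held 1 sample far from the other 3. For genes not picked on their values, chance gives about 1 in 20 groups, 3.9 here. That rate does not hold for TXNIP, the genes most like it and the named list genes, which were picked on these same values. Nothing is therefore read from 12 against 3.9. Each flagged group is given with the distance between its far sample and the closest neighbour, divided by the span of the group. Of the 7 genes, TXNIP was far above the others in hLcn-2 sample 3 (0.861, 726 CPM against 274 to 337 CPM), ARRDC2 was above them in control 1 (0.840, 10.1 CPM) and MLX was below them in control 3 (0.835, 19.2 CPM).

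Among the 5 genes chosen for their likeness to TXNIP, samples of number 3 stood above the others for C7orf26 (0.948 in control 3), USP51 (0.868 in control 3), CRYM (0.873 in control 3 and 0.852 in hLcn-2 sample 3) and INSR (0.841 in control 3 and 0.899 in hLcn-2 sample 3), as their choice by the TXNIP profile makes likely. Of the listed genes, VPS26C was above in control 3 (0.884, 64.0 CPM), RGP1 above in hLcn-2 sample 1 (0.843, 13.9 CPM) and SMURF1 below in control 4 (0.838, 29.6 CPM). Library depth was 5799151 reads in control 3 and 2088266 in hLcn-2 sample 3, and its part in these values was not tested.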

How the results depend on the processing

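With the columns as named in the deposited table, TXNIP and ARRDC3 were higher after hLcn-2 under all 28 settings run and ARRDC4 under all 27 in which it passed the filter. Some settings, such as the filters and the replicate block in limma, cannot change the difference of a gene. The counts of settings therefore overstate how many separate checks were made. The opposite direction that the study lists for TXNIP is given above. With all samples, the log2 difference was 0.53 to 0.58 for TXNIP, 0.59 to 0.71 for ARRDC3 and 0.46 to 0.91 for ARRDC4. With samples left out it was 0.24 to 0.86, 0.40 to 0.88 and 0.53 to 0.998. MLX was lower under all 28 settings and ARRDC2 under all 27 in which it passed the filter, although both differences were smaller than their standard errors. An unchanged sign was therefore not particular to TXNIP, ARRDC3 and ARRDC4. The sign of ARRDC1 and MLXIP changed between settings, with ranges of -0.24 to 0.15 and -0.075 to 0.063 when samples were left out. The number of genes called, 0 without the replicate block under every setting, was 44 (34 higher, 10 lower) in limma with the block, 233 (175 higher, 58 lower) in edgeR with it and 173 (131 higher, 42 lower) in DESeq2 with it. With samples left out it was 0 to 58, the lowest with the block being 0 without both samples of number 3 and the highest without both of number 4. It was 14 without number 1 and 3 without number 2. Of the listed genes, edgeR with the replicate block called 1. The cause of these shifts was not tested. With a mean of at least 50 CPM required, 0 of the 5 genes most like TXNIP remained, because all 5 lay below that level. The depth limits ARRDC1, ARRDC2 and ARRDC4, with as few as 6, 13 and 3 reads in control 4.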
